A study of Mus musculus with 11 samples.

Results

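Nrf1 encodes a transcription factor that binds GC-rich sites and fails to bind them when they are methylated. It was followed here together with 9 genes that work with it, carry a similar name or are classically placed downstream of it: Nfe2l1, Gabpa, Ppargc1a, Ppargc1b, Pprc1, Tfam, Tfb1m, Tfb2m and Polrmt. The 10 genes were taken by symbol from 33188 genes in joined tables of read counts, and each was found under 1 identifier and passed the filter on low counts in all 6 comparisons. The study asked whether Nrf1 is needed for the transcription of retrotransposons that have lost DNA methylation, and whole testes of C57Bl6/J mice were collected at postnatal day 5 (P5), before most of the germ cell loss in the conditional mutant. Poly-A RNA was sequenced from 11 libraries. There were 2 of WT, 3 of Dnmt3C KO (Dnmt3C KO/KO, without the DNA methyltransferase that methylates young retrotransposons in male germ cells), 3 of Nrf1 cKO (Nrf1 fl/KO with Ddx4-Cre, labelled Nrf1 KO/KO) and 3 of dKO, which carried both sets of alleles. Ddx4-Cre, also called Vasa-Cre, is expressed from a germ cell promoter, and by that design somatic cells of Nrf1 cKO and dKO testes kept a floxed and a null allele of Nrf1. The labels do not say which Nrf1 alleles the WT and Dnmt3C KO animals carried. Germ cell deletion and a null allele in somatic cells thus cannot be told apart in the differences given below as Nrf1 loss. Controls were littermates where that was possible.

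NRF1 was first described as an activator of nuclear genes for the respiratory chain and for the expression of mitochondrial DNA. In that classical scheme the PGC-1 coactivators, which do not bind DNA themselves, dock on NRF1, on GABP (also called NRF-2) and on nuclear receptors, and these factors raise the transcription of Tfam, Tfb1m, Tfb2m and Polrmt. TFAM, TFB2M and the RNA polymerase POLRMT then start transcription on mitochondrial DNA. In the male germ line NRF1 is required for the survival of germ cells.

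No member of the group differed between genotypes at an adjusted p under 0.01 (edgeR's quasi-likelihood test, Benjamini-Hochberg adjustment over all genes and transposable element subfamilies). The largest differences with germline loss of Nrf1 were a Ppargc1a level 26.3% lower in Nrf1 cKO than in WT and an Nfe2l1 level 27.0% higher in the same comparison, and both 95% intervals include 0. In Nrf1 cKO against WT, 0 of 10 members and 0 of 21296 features (0%) were called, and 0 members had an unadjusted p under 0.05, beside 5.75% of all features. In dKO against Dnmt3C KO the counts were 0 of 10 members called, 0% of 20783 features called and 0 members under the unadjusted 0.05, beside 7.18% of features. Dnmt3C KO against WT gave 0 members called beside 0% of features, and 1 member, Ppargc1a, had an unadjusted p under 0.05, beside 5.41%. No member was called in dKO against Nrf1 cKO either (0% of 20381 features), and 0 reached an unadjusted p of 0.05, beside 2.81%. With Nrf1 loss estimated over both Dnmt3C backgrounds in 1 additive model of the 11 libraries, 0 members were called beside 0.00443% of features, and Nfe2l1 alone had an unadjusted p under 0.05, beside 7.87%. The Dnmt3C by Nrf1 interaction called 0 members beside 0% of features, and 0 members passed an unadjusted 0.05, beside 5.55%. The DESeq2 Wald test on the same counts called no member in any of the 6 comparisons, where it called 0.079%, 0.0567%, 0.0751%, 0.0241%, 0.108% and 0% of the features it gave a p-value, in the order above. The paper's own DESeq2 comparison of Nrf1 cKO with wild type reported differing protein-coding genes, more of them lower than higher. Known germline targets of NRF1 were among them. Counts of 0 here do not mean that the testis transcriptome was unchanged. Leaving out 1 library moved the log2 estimate by more than 1.5 times, or turned its sign, in 54 of the 60 results (10 members in 6 comparisons). Estimates near 0, such as -0.0002 ± 0.15 SE for Tfb2m in dKO against Nrf1 cKO, pass that ratio on a shift smaller than their SE.

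The libraries held 26063590 to 39365841 counts, with a median of 33862160, and values below are counts per 1000000 after TMM scaling (CPM) unless said otherwise. Their titles name germ cells, while the label for the tissue is whole testis. The summed level of 11 Sertoli cell markers was between 4245 and 7985 CPM and that of 25 germ cell markers between 216 and 958 CPM, so that somatic transcripts were present in every library. None of the 25 germ cell markers was at 0 in any genotype. Their summed level lay between 543 and 700.4 CPM in WT, between 543 and 958 CPM in Dnmt3C KO, between 216 and 406 CPM in Nrf1 cKO and between 269 and 559 CPM in dKO. In Nrf1 cKO against WT, 24 of 25 had a lower mean and 16 of 25 were lower in every Nrf1 cKO library than in both WT libraries, beside 11.6% of all features. In dKO against Dnmt3C KO all 25 had a lower mean and 5 of 25 did not overlap, beside 6.9% of features. Markers of some somatic cells also had a lower mean in dKO than in Dnmt3C KO: 5 of 5 for macrophages, 5 of 5 for peritubular cells, 5 of 6 for Leydig cells, 4 of 11 for Sertoli cells, 2 of 4 for endothelial cells and 2 of 4 for red blood cells. In Nrf1 cKO against WT the same lists had 0, 1, 1, 1, 0 and 4 markers with a lower mean. Fewer germ cells and less RNA per germ cell cannot be told apart in whole testis. The part of the germ cell and somatic cell shares in the members' levels was not tested.

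Nrf1 (ENSMUSG00000058440.14, chr6:30047988-30153458 on GRCm38, plus strand) was at 57.0 and 58.0 CPM in the WT libraries, at 45.0, 55.6 and 50.3 CPM in Dnmt3C KO, at 56.1, 52.2 and 57.9 CPM in Nrf1 cKO and at 56.8, 60.8 and 60.8 CPM in dKO. The libraries with the floxed allele deleted in germ cells thus lay among or above the others, and the lowest of the 11 was a Dnmt3C KO library. In Nrf1 cKO the level was 4.2% lower than in WT (log2 fold change -0.06 ± 0.16 SE, adjusted p = 0.995), with a 95% interval from 25.0% lower to 22.4% higher. All 3 dKO libraries were higher than all 3 Dnmt3C KO libraries, by 18.1% (log2 0.24 ± 0.11 SE, unadjusted p = 0.054, adjusted p = 0.675), and Nrf1 was the only member whose libraries did not overlap in that comparison, beside 13.6% of features. In Dnmt3C KO the 3 libraries were below both WT libraries (log2 -0.19 ± 0.14 SE, adjusted p = 0.953). The estimate over both backgrounds was 8.0% higher (log2 0.11 ± 0.09 SE, adjusted p = 0.755), and the interaction was 0.30 ± 0.17 SE (adjusted p = 0.903). Without Dnmt3C KO replicate 1, the lowest library, the log2 estimates were -0.11 for Dnmt3C KO against WT and 0.05 over both backgrounds, while Nrf1 cKO against WT came to -0.02 without Nrf1 cKO replicate 2 and to -0.09 without Nrf1 cKO replicate 3. A count sums the reads over all exons of a gene, so the floxed exons were not measured on their own, and the Nrf1 count does not check the Nrf1 labels. The paper checked genotypes by PCR and reported no nuclear NRF1 staining in germ cells of Nrf1 cKO and dKO testes. Dnmt3c, the other targeted gene, was between 4.16 and 4.87 CPM in WT and between 3.02 and 4.51 CPM in Dnmt3C KO, so its count does not check the labels either. Between 1496 and 2185 reads per library stood behind the Nrf1 values.

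**Figure D1:**
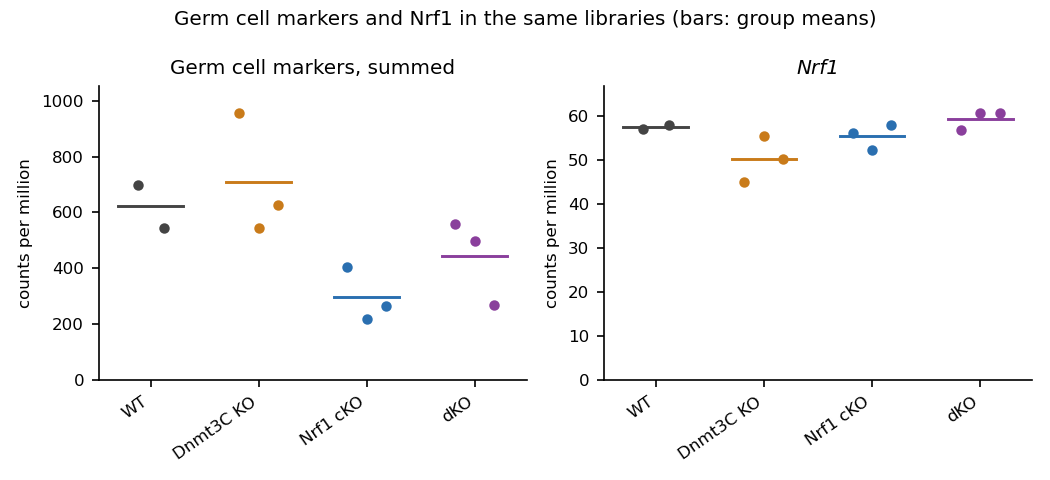
Summed level of 25 germ cell markers (left) and level of Nrf1 (right) in the same 11 libraries, both in CPM on axes from 0, with a point for each library and a bar at each group mean. The markers were between 216 and 406 CPM in Nrf1 cKO and at 543 and 700.4 CPM in WT, while Nrf1 was between 52.2 and 57.9 CPM in Nrf1 cKO and at 57.0 and 58.0 CPM in WT.

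Nrf1 has 2 start windows in the RefSeq promoter table for GRCm38.p6, which lists 300 bases per start, 250 before and 50 after it. The first, chr6:30047738-30048037, holds 43 CpG dinucleotides, more than 97.4% of the 32851 windows of the table and the most of any window of the group. The second, chr6:30076071-30076370, holds 2. Neither held a match to the sites searched on both strands: the NRF1 core GCATGCGC (in 2.71% of all windows), its variant GCACGCGC (2.77%), the ETS core CCGGAA bound by GABP (14.9%) and the cyclic AMP response core TGACGT (7.51%). Of the 10 members 9 had a window in the table, 14 windows in all.

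Nfe2l1 is a namesake and not a relative: its product, a cap'n'collar basic leucine zipper factor anchored in the endoplasmic reticulum and known for raising proteasome genes, is also written NRF1. The gene (ENSMUSG00000038615.17, chr11:96817414-96829968, minus strand) was at 239 and 167 CPM in WT, at 214, 220.3 and 194 CPM in Dnmt3C KO, at 258, 245 and 277 CPM in Nrf1 cKO and at 209, 267 and 229 CPM in dKO. All 3 Nrf1 cKO libraries were above both WT libraries, and Nfe2l1 and Ppargc1a were the 2 members that did not overlap in that comparison, beside 21.3% of all features. WT replicate 1 was at 1.44 times the level of WT replicate 2, a wider gap than between any libraries of Dnmt3C KO or Nrf1 cKO. The fitted difference of Nrf1 cKO from WT was 27.0% higher (log2 0.35 ± 0.22 SE, adjusted p = 0.943, interval from 9.1% lower to 77.5% higher). Its size rested on the WT libraries: the log2 estimate was 0.11 without WT replicate 2 and 0.66 without WT replicate 1. For dKO against Dnmt3C KO it was 11.9% higher (log2 0.16 ± 0.12 SE, adjusted p = 0.74), and 0.05 on the log2 scale without dKO replicate 2. The additive model put it at 19.0% (log2 0.25 ± 0.11 SE, unadjusted p = 0.042, adjusted p = 0.608), the lowest p of the group in that model, and the log2 estimate was 0.15 without WT replicate 2.

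Gabpa encodes the DNA-binding ETS subunit of GABP. It (ENSMUSG00000008976.16, chr16:84834925-84863779, plus strand, overlapped by Atp5j on the other strand) was at 74.2 and 85.7 CPM in WT, at 65.8, 71.1 and 73.7 CPM in Dnmt3C KO, at 85.4, 64.8 and 65.9 CPM in Nrf1 cKO and at 68.0, 84.7 and 71.3 CPM in dKO. Each Nrf1-deleted genotype had 1 library near the higher WT value and 2 below the lower one. The difference was -0.16 ± 0.19 SE on the log2 scale in Nrf1 cKO against WT (adjusted p = 0.987) and 0.09 ± 0.12 SE in dKO against Dnmt3C KO (adjusted p = 0.853). The first of these was -0.05 without WT replicate 2 and -0.30 without Nrf1 cKO replicate 1. Only the Dnmt3C KO libraries were all below WT (log2 -0.19 ± 0.14 SE, adjusted p = 0.953, and -0.06 without WT replicate 2). With Ppargc1a and Nrf1, Gabpa made up the 3 members that did not overlap in Dnmt3C KO against WT, where 21.3% of features did not.

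Of the PGC-1 family, Ppargc1a (PGC-1α) is the inducible coactivator of mitochondrial biogenesis in brown fat and muscle, Ppargc1b (PGC-1β) its close relative, and Pprc1 (PRC) a larger coactivator that is induced when cells re-enter growth. Ppargc1a (ENSMUSG00000029167.13, chr5:51454250-51567726, minus strand) was at 7.21 and 6.52 CPM in WT, at 4.80, 3.84 and 5.37 CPM in Dnmt3C KO, at 4.28, 4.52 and 6.51 CPM in Nrf1 cKO and at 5.96, 5.41 and 5.26 CPM in dKO. Both WT libraries were thus above all 9 mutant libraries, the closest pair being WT replicate 2 and Nrf1 cKO replicate 3, and 1.78% of 22594 features had all mutant libraries below both WT libraries. These comparisons share the 2 WT libraries. The level was 32.0% lower in Dnmt3C KO than in WT (log2 -0.56 ± 0.25 SE, unadjusted p = 0.047, adjusted p = 0.893, interval from 53.5% to 0.6% lower). In Nrf1 cKO against WT it was 26.3% lower (log2 -0.44 ± 0.30 SE, adjusted p = 0.947, interval from 53.5% lower to 16.6% higher). In dKO against Dnmt3C KO it was 18.6% higher (log2 0.25 ± 0.21 SE, adjusted p = 0.768, and 0.12 without Dnmt3C KO replicate 2), and the interaction of the 2 genotypes, the largest of the group, was 0.68 ± 0.34 SE (unadjusted p = 0.063, adjusted p = 0.903). Between 141 and 267 reads per library stood behind these values, and 4 unnamed transcripts lie in the gene, 3 of them on its own strand.

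Ppargc1a is known to be switched on through a cyclic AMP response site close to its start, and it is the member whose listed start is poorest in CpG apart from the second window of Nrf1. Its window, chr5:51567676-51567975 (minus strand), holds 5 CpG dinucleotides and 1 match to TGACGT, read here as its other strand, that begins 50 bases before the start and is given in capitals.
Ppargc1a: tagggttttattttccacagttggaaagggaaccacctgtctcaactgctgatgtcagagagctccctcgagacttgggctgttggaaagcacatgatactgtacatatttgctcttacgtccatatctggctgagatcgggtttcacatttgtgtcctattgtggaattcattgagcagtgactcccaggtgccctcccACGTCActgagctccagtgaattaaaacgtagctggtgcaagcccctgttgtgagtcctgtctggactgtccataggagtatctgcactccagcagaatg

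Ppargc1b (ENSMUSG00000033871.14) was close to the limit of counting, with 11 to 44 reads per library. It was at 1.19 and 0.75 CPM in WT, at 0.98, 0.69 and 0.35 CPM in Dnmt3C KO, at 1.03, 0.73 and 0.89 CPM in Nrf1 cKO and at 0.48, 0.90 and 1.04 CPM in dKO. All groups overlapped. The interval of the difference in Nrf1 cKO against WT reached from 56.3% lower to 86.7% higher.

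Pprc1 (ENSMUSG00000055491.14, chr19:46044886-46072915, plus strand, overlapped by Ldb1 on the other strand) was at 105 and 65.6 CPM in WT, at 90.5, 82.6 and 72.5 CPM in Dnmt3C KO, at 81.0, 60.9 and 68.2 CPM in Nrf1 cKO and at 76.0, 105 and 68.3 CPM in dKO. WT replicate 1 was at 1.61 times WT replicate 2, and the 2 WT libraries spanned most of the range of the 11. The difference was -0.30 ± 0.23 SE on the log2 scale in Nrf1 cKO against WT (adjusted p = 0.963) and 0.02 ± 0.16 SE in dKO against Dnmt3C KO (adjusted p = 0.983).

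**Figure D2:**
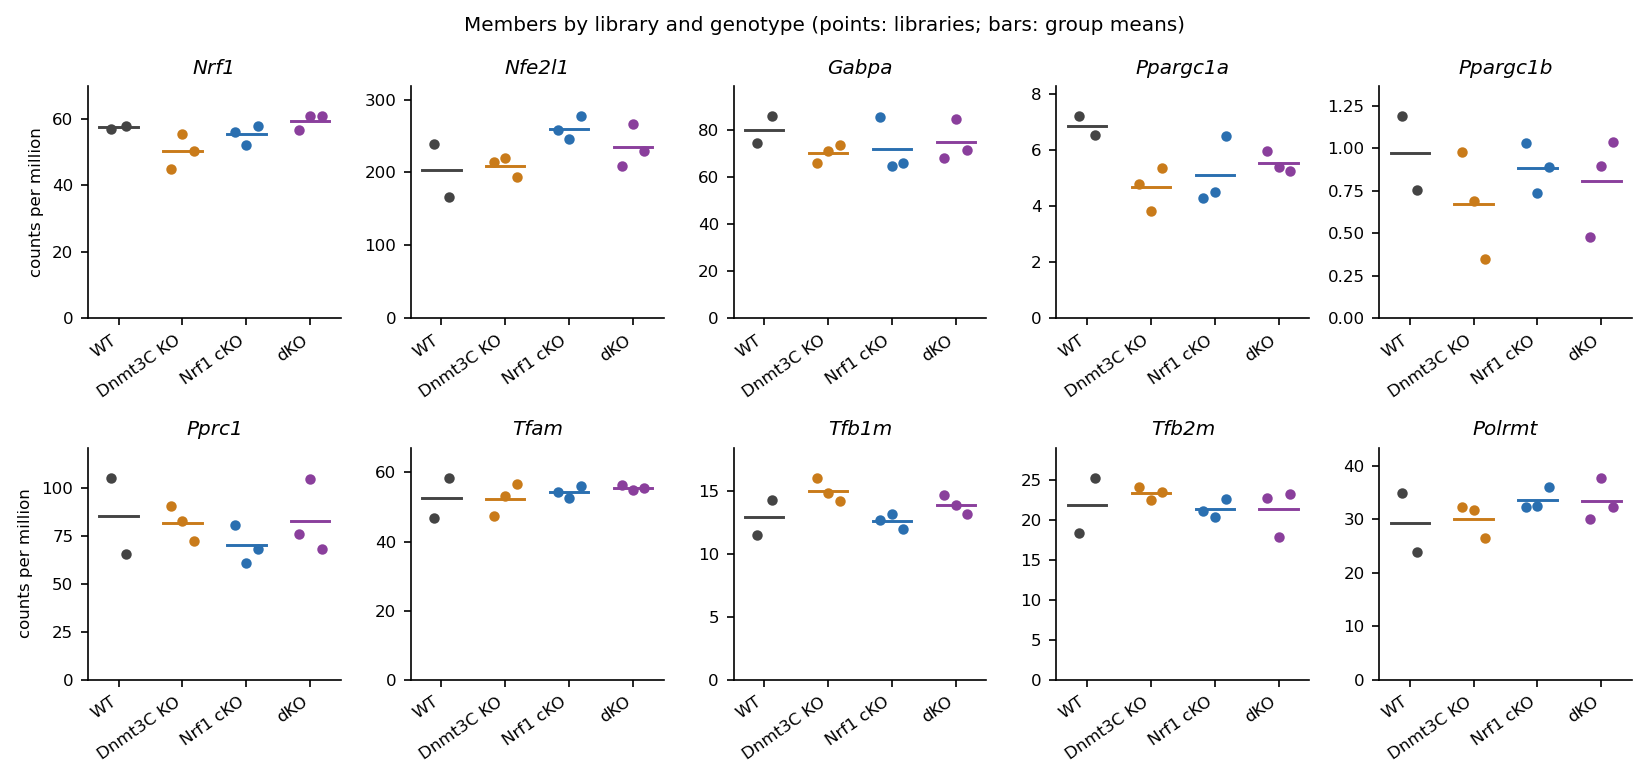
Level of each of the 10 genes in CPM, on axes from 0, with a point for each of the 2 WT and 3 Dnmt3C KO, Nrf1 cKO and dKO libraries and a bar at each group mean. In each pair compared the groups overlap for most genes, the WT points of Pprc1, Nfe2l1 and Polrmt are far apart, and for Ppargc1a both WT points (7.21 and 6.52 CPM) are above every mutant point.

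The WT libraries also differed in base composition. Over 13406 protein-coding genes with at least 1 CPM, the median log2 deviation of the 20% of genes richest in GC minus that of the 20% poorest was -0.40 in WT replicate 2, between -0.16 and 0.25 in the other 10 libraries, and 0.09 in WT replicate 1. This measure was added after the values were seen. Of the members whose longest transcript is richest in GC, Polrmt (60.5%), Pprc1 (55.9%) and Nfe2l1 (54.4%) were all lower in WT replicate 2 than in WT replicate 1, with levels in WT replicate 1 of 1.46, 1.61 and 1.44 times those in WT replicate 2. Ppargc1b (57.8%) was at 1.58 times, on few reads. Tfb2m (42.5% GC), Tfb1m (42.6%) and Tfam (44.9%) went the other way, with ratios of 0.73, 0.80 and 0.80. Nrf1 (45.4% GC), Gabpa (41.4%) and Ppargc1a (41.7%) had ratios of 0.98, 0.87 and 1.11. The part of base composition in the differences of mutants from WT was not tested.

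TFAM packages mitochondrial DNA and bends its promoters. Tfam (ENSMUSG00000003923.14, chr10:71225464-71238280, minus strand) was at 46.8 and 58.5 CPM in WT, at 47.3, 53.1 and 56.6 CPM in Dnmt3C KO, at 54.3, 52.5 and 56.1 CPM in Nrf1 cKO and at 56.5, 55.0 and 55.5 CPM in dKO. The highest and the lowest value of the 11 were both WT, at a ratio of 1.25, the narrowest range of any member, and all groups overlapped. Against WT, Nrf1 cKO was 2.7% higher, with an interval from 20.6% lower to 32.9% higher (log2 0.04 ± 0.17 SE, adjusted p = 0.996). Over both backgrounds the difference was 4.9% with an interval from 7.6% lower to 19.1% higher (log2 0.07 ± 0.09 SE, adjusted p = 0.846), and the log2 estimate was 0.02 without WT replicate 1 and 0.13 without WT replicate 2.

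TFB1M and TFB2M are related to bacterial methyltransferases of ribosomal RNA: TFB1M modifies the RNA of the small mitochondrial ribosomal subunit, and TFB2M melts the promoter for the polymerase. Tfb1m (ENSMUSG00000036983.7, chr17:3519256-3557781, minus strand, overlapped by Tiam2 and Cldn20 on the other strand) was at 11.5 and 14.3 CPM in WT, at 16.1, 14.9 and 14.2 CPM in Dnmt3C KO, at 12.7, 13.2 and 12.0 CPM in Nrf1 cKO and at 14.7, 13.9 and 13.2 CPM in dKO. The Nrf1 cKO libraries lay between the WT libraries (log2 -0.04 ± 0.21 SE, adjusted p = 0.996), and dKO against Dnmt3C KO gave -0.12 ± 0.13 SE (adjusted p = 0.825), or -0.07 without Dnmt3C KO replicate 1. Tfb2m (ENSMUSG00000026492.11, chr1:179528055-179546267, minus strand) was at 18.4 and 25.2 CPM in WT, at 24.0, 22.5 and 23.5 CPM in Dnmt3C KO, at 21.0, 20.3 and 22.6 CPM in Nrf1 cKO and at 22.8, 17.9 and 23.2 CPM in dKO. Here too the Nrf1 cKO libraries lay between the 2 WT values (log2 -0.04 ± 0.20 SE, adjusted p = 0.996), and dKO against Dnmt3C KO gave -0.14 ± 0.13 SE (adjusted p = 0.795), or -0.04 without dKO replicate 2.

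Polrmt encodes the single-subunit RNA polymerase of mitochondria. The gene (ENSMUSG00000020329.12, chr10:79736123-79746581, minus strand) was at 34.9 and 23.9 CPM in WT, at 32.3, 31.8 and 26.4 CPM in Dnmt3C KO, at 32.4, 32.4 and 36.1 CPM in Nrf1 cKO and at 30.1, 37.8 and 32.3 CPM in dKO. The groups overlapped in each pair compared (Dnmt3C KO and Nrf1 cKO were not), with WT replicate 2 the lowest of all. Polrmt was 13.4% higher in Nrf1 cKO than in WT, with an interval from 17.4% lower to 55.7% higher (log2 0.18 ± 0.21 SE, adjusted p = 0.986), and 10.5% higher in dKO than in Dnmt3C KO (log2 0.14 ± 0.13 SE, adjusted p = 0.773). The latter estimate was 0.03 without dKO replicate 2 and 0.06 without Dnmt3C KO replicate 3.

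Tfb2m and Polrmt were the members with a match to an NRF1 sequence at the listed start, and Tfam, Gabpa, Tfb1m, Polrmt and the second of the 5 windows of Nfe2l1 held the ETS core. The windows of Polrmt and Tfb2m are printed below because they hold an NRF1 sequence, and that of Tfam as an example with the ETS core alone. Capitals mark every match to the sequences searched. The window of Polrmt, chr10:79746532-79746831, has GCGCATGC, the other strand of the NRF1 core, starting 133 bases before the start, TTCCGG, the other strand of the ETS core, starting 42 bases before it, and 2 overlapping copies of GCGCGTGC, the other strand of the variant core, of which the first starts 6 bases before it.
Polrmt: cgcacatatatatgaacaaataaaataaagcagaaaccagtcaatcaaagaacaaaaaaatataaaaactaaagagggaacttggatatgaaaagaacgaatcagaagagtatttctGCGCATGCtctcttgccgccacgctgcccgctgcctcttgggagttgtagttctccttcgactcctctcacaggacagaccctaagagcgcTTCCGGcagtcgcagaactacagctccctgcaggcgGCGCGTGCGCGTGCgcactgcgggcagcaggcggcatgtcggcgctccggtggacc
Tfb2m: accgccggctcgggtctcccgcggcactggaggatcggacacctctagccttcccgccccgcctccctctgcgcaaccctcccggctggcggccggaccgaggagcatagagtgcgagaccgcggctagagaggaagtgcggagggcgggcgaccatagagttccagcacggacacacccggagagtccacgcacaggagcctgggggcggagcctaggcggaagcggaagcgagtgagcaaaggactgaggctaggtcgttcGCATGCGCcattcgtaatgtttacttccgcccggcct
Tfam: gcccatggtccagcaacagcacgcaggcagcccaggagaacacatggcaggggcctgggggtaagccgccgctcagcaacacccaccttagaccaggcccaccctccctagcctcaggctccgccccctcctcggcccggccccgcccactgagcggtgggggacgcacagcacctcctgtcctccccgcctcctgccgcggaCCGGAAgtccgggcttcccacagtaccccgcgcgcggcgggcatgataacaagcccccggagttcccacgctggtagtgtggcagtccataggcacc
The window of Tfb2m, chr1:179546227-179546526, holds 32 CpG dinucleotides and the NRF1 core at base 14 from the start, and that of Tfam, chr10:71237995-71238294, holds 21 and the ETS core beginning 47 bases before the start. All 3 are printed 5′ to 3′ on the minus strand. A match is a description of these letters and not of binding, and the levels of Polrmt and Tfb2m were as given above: for Nrf1 loss over both backgrounds 12.3% higher with an interval from 4.9% lower to 32.7% higher for Polrmt, and 6.0% lower with an interval from 20.1% lower to 10.6% higher for Tfb2m. The log2 estimates of these were 0.08 and -0.02 without WT replicate 2, and 0.26 and -0.17 without WT replicate 1.

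Per exon length, on the scale of transcripts per 1000000 (TPM, with exon lengths of GENCODE M21), the members took the following order. Nfe2l1 was the most abundant, between 85.6 and 160.4 TPM over the 11 libraries, and did not overlap the next. Gabpa (32.8 to 48.7 TPM), Pprc1 (27.9 to 57.0 TPM) and Tfam (32.4 to 40.5 TPM) overlapped one another. Tfb2m (20.8 to 26.02 TPM) lay below these, and Polrmt (14.2 to 26.4 TPM) overlapped both Tfb2m and Nrf1. Nrf1 itself, with 10282 bases of exons the longest member, was at 13.3 to 19.4 TPM, just overlapping Tfb1m (10.5 to 13.5 TPM). Ppargc1a (1.64 to 3.72 TPM) and Ppargc1b (0.25 to 1.01 TPM) overlapped no other member.

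**Figure D3:**
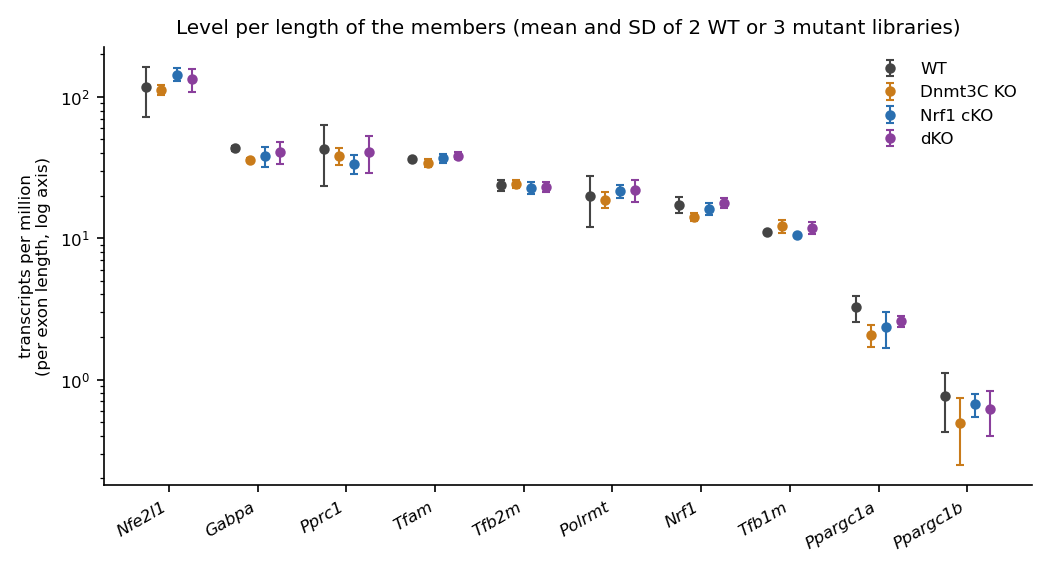
Level per exon length of the 10 genes in TPM on a log axis, ordered by the mean of the 11 libraries, with a point at the mean and a bar for the SD of 2 WT libraries or 3 libraries of each mutant. Nfe2l1 is above 85.6 TPM in every library, and the highest libraries of Ppargc1a and Ppargc1b are at 3.72 TPM and 1.01 TPM.

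Read side by side over the whole group, 7 of 10 members had an estimate below 0 in Nrf1 cKO against WT and 2 of 10 in dKO against Dnmt3C KO. The median log2 fold change was -0.05 and 0.12, beside 0.0024 and 0.017 over all features. Of the 60 intervals, 2 left out 0: that of Ppargc1a in Dnmt3C KO against WT and that of Nfe2l1 over both backgrounds. The widest belonged to Ppargc1b, and the intervals of Nrf1 and Tfam over both backgrounds spanned 5.5% lower to 23.3% higher and 7.6% lower to 19.1% higher. In dKO against Nrf1 cKO the libraries of 0 members were separate (7.43% of features were), and over both backgrounds 0 members were separate, beside 0.726% of features.

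**Figure D4:**
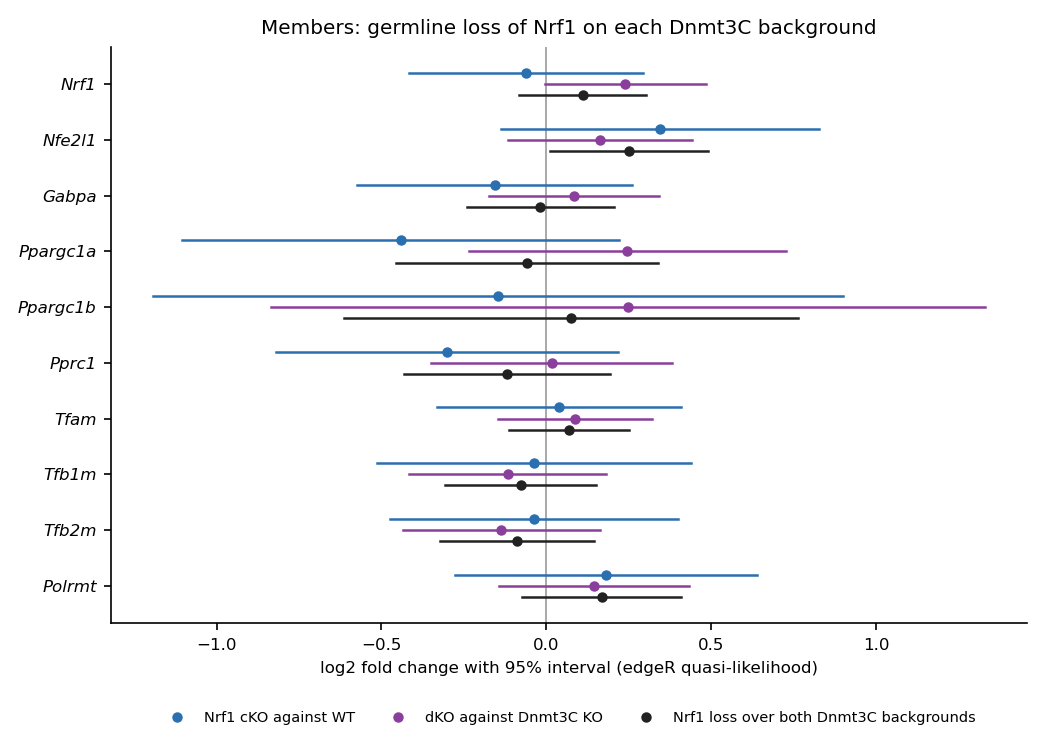
Log2 fold change (point) and 95% interval (line) of each gene in Nrf1 cKO against WT, in dKO against Dnmt3C KO and for Nrf1 loss over both Dnmt3C backgrounds, from edgeR's quasi-likelihood fit. Every interval crosses 0 except that of Nfe2l1 over both backgrounds (estimate 0.25), and those of Ppargc1b are the widest.

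The other genes of the pathway were read from 4 lists, 79 genes in all, each of them tested. No gene of the lists was called in any of the 6 comparisons by edgeR without a block for the replicate number or by the DESeq2 Wald test, beside the shares of features given above. The number at an unadjusted p under 0.05 was 0 of 79 in Nrf1 cKO against WT (5.75% of all features), 12 in dKO against Dnmt3C KO (7.18% of features), 5 in Dnmt3C KO against WT (5.41%), 1 in dKO against Nrf1 cKO (2.81%), 5 over both backgrounds (7.87%) and 1 for the interaction (5.55%). Among 23 genes for the maintenance and expression of mitochondrial DNA, such as the polymerase Polg and the helicase Twnk, 8 had an estimate above 0 and 15 below in Nrf1 cKO against WT (median log2 -0.06), and 7 and 16 in dKO against Dnmt3C KO (median -0.05). The gene with the smallest p was Slirp, whose product stabilizes mitochondrial mRNA, at 52.0 ± 4.89 CPM (SD, n = 3) in Dnmt3C KO and 39.7 ± 8.05 CPM in dKO (log2 -0.39 ± 0.15 SE, adjusted p = 0.675). It was followed by Tefm, the mitochondrial elongation factor, with -0.24 ± 0.11 SE over both backgrounds (adjusted p = 0.607). In WT and Nrf1 cKO Slirp was at 41.0 ± 9.51 CPM (n = 2) and 41.0 ± 6.53 CPM.

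Of 22 partners and upstream regulators of NRF1, GABP and the PGC-1 family, 13 lay above 0 and 9 below in Nrf1 cKO against WT (median 0.09), and 17 and 5 in dKO against Dnmt3C KO (median 0.10). Prkaa2, a catalytic subunit of the energy sensor AMPK, which acts on PGC-1α, was at 6.91 ± 1.17 CPM in Dnmt3C KO and 9.80 ± 1.47 CPM in dKO (log2 0.50 ± 0.20 SE, adjusted p = 0.675). Nrip1, a corepressor of nuclear receptors, was at 39.1 ± 0.989 CPM and 49.6 ± 9.60 CPM in the same groups (log2 0.34 ± 0.14 SE, adjusted p = 0.675). In Nrf1 cKO against WT the estimates of Prkaa2 and Nrip1 were 0.15 ± 0.32 SE and 0.08 ± 0.19 SE (adjusted p = 0.994 and 0.995). Of 15 genes around Nfe2l1 (its relatives, its small Maf partners and the enzymes that process it), 11 were above 0 in dKO against Dnmt3C KO and 9 in Nrf1 cKO against WT. The small Maf factor Maff had an estimate of 0.50 ± 0.20 SE over both backgrounds (adjusted p = 0.589) and Keap1, the adaptor that marks the relative NRF2 for degradation, one of 0.25 ± 0.10 SE (adjusted p = 0.589). Maff was at 5.74 CPM in Nrf1 cKO replicate 1 and between 2.24 and 3.91 CPM in the other libraries.

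Among 19 targets long ascribed to NRF1, mostly nuclear genes for cytochrome c and subunits of the respiratory chain, the counts were as follows in the 2 backgrounds. In Nrf1 cKO against WT 10 were above 0 and 9 below, with a median of 0.0104 and 0 of 19 at an unadjusted p under 0.05. In dKO against Dnmt3C KO 14 of 19 were below 0, with a median of -0.25 beside 0.017 over all features, and 7 of 19, each with a lower level in dKO, reached an unadjusted p of 0.05, beside 7.18% of features in either direction. In Dnmt3C KO against WT 15 of the 19 were above 0 (median 0.20), and in dKO against Nrf1 cKO 16 were below 0 (median -0.06). Cox7c, a small subunit of cytochrome c oxidase, was at 193 ± 15.5 CPM in Dnmt3C KO and 138 ± 20.6 CPM in dKO (log2 -0.48 ± 0.13 SE, adjusted p = 0.675). Cox7a2, another small subunit, was at 147 ± 22.8 CPM and 105 ± 16.4 CPM (log2 -0.49 ± 0.15 SE, adjusted p = 0.675). The mean WT levels of both, 163 ± 51.1 CPM (n = 2) and 109.6 ± 23.8 CPM, lay below those of Dnmt3C KO, and the interaction over the list had a median of -0.31. For Cox7c the libraries overlapped, with WT replicate 2 at 199 CPM beside 208, 177 and 194 CPM in Dnmt3C KO. Small subunit genes of this kind have processed pseudogenes, between which multi-mapping reads can be split. For none of these genes was the difference between the backgrounds called (lowest adjusted p of the interaction 0.895). Transcript length and cell type markers also differed between these libraries. Over the 13406 genes, the deviation of the 20% with the longest exons minus that of the 20% with the shortest was -0.10, -0.23 and -0.14 in the Dnmt3C KO libraries and -0.07, 0.24 and 0.10 in dKO. It was 0.30 and -0.09 in WT and 0.05, -0.21 and 0.12 in Nrf1 cKO. In dKO against Dnmt3C KO, 25 of 25 germ cell, 5 of 5 macrophage, 5 of 5 peritubular and 5 of 6 Leydig cell markers had a lower mean, as given above. The part of length and of the cell shares in the result was not tested.

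**Figure D5:**
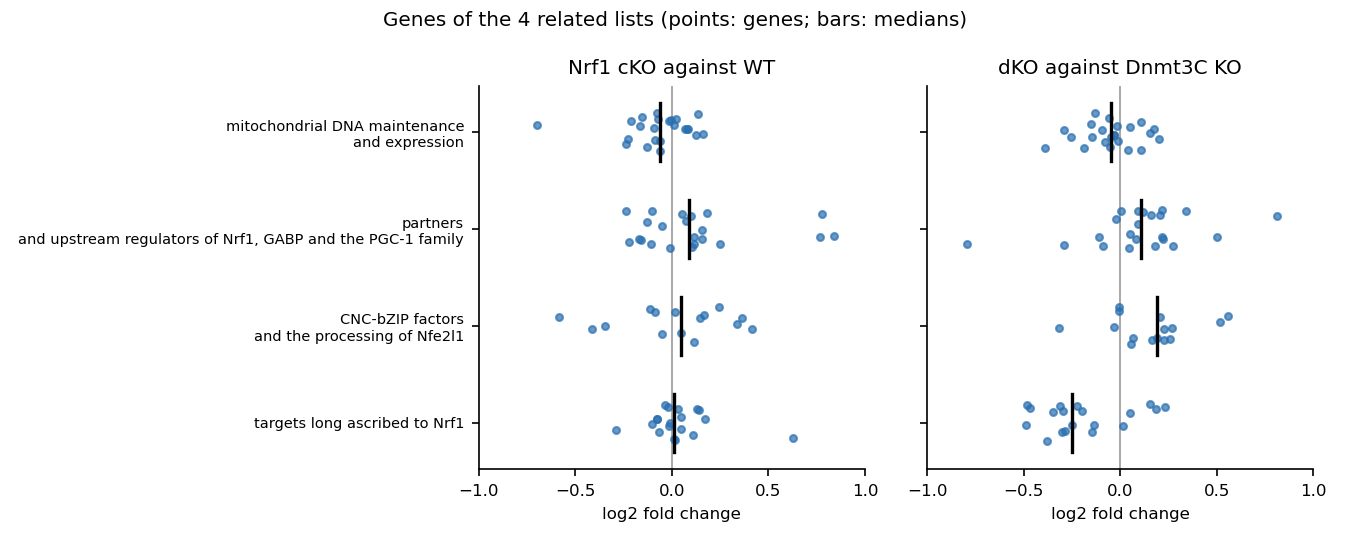
Log2 fold change of each gene (points, jittered vertically) of 4 lists of related genes in Nrf1 cKO against WT (left) and in dKO against Dnmt3C KO (right), with a bar at each list's median. The median of the 19 targets long ascribed to Nrf1 is 0.0104 on the left and -0.25 on the right, and no gene passed the adjusted threshold in either.

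The 13 protein-coding mRNAs of the mitochondrial genome, which POLRMT transcribes with TFAM and TFB2M, made up 2.16% and 3.91% of the scaled counts of the WT libraries. Their share was 2.81%, 2.76% and 3.53% with Dnmt3C KO, 2.78%, 2.32% and 2.46% with Nrf1 cKO, and 2.99%, 2.12% and 4.07% with dKO. The WT libraries alone spanned almost the whole range, and all groups overlapped. None of the 13 was called by edgeR in any of the 6 comparisons (0% to 0.00443% of features were) or by the DESeq2 Wald test (0% to 0.108%), and at most 1 of the 13 had an unadjusted p under 0.05 in a comparison, beside 2.81% to 7.87% of features. Their median log2 fold change was -0.29 in Nrf1 cKO against WT and -0.03 in dKO against Dnmt3C KO, with lowest adjusted p-values of 0.827 and 0.675. These transcripts carry short poly-A tails, so a poly-A library is a partial measure of them.

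The 5 genes whose log2 CPM followed Nrf1 most closely over the 11 libraries, among 16002 genes with a mean of at least 1 CPM, were Nat14 (Pearson r = 0.959), Pard6g (0.937), Mapre1 (0.920), B3galt6 (0.918) and Fem1b (0.916). They are the upper end of 16002 values over 11 points that share depth and base composition, and are given as a description. None of the other members was among them: Tfam had an r of 0.487 and Gabpa of 0.450, while Tfb2m stood at -0.33 and Tfb1m at -0.51.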

How the data were processed

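Poly-A RNA of whole P5 testes was sequenced by the authors from a stranded library kit. Reads were aligned with STAR 2.7.3a to GRCm38 (mm10) and counted by the authors on genes and transposable element subfamilies with TEtranscripts in multi-mapping mode, and raw counts were deposited as pairwise tables. No library had conflicting values between tables, which were joined to 33188 genes and 1088 subfamilies. Their mean normalized counts (a score), log2 fold changes, statistics, p-values and adjusted p-values come from the authors' DESeq2 1.44.0 comparisons and were not used, nor was the deposited TPM table of transposable element copies.

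The counts were analysed with edgeR 4.0.16 in R 4.3.3 (filterByExpr, TMM, quasi-likelihood F test) on the libraries compared, or on all 11 for the additive and interaction models. The threshold was an adjusted p under 0.01 (Benjamini-Hochberg). SE is the absolute log2 fold change over the square root of F. The edgeR test was run on simulated counts as a check of the code only. Alternatives were DESeq2 1.42.0, other scalings, no filter, genes without transposable elements, all genotypes in a joint fit, a block for the replicate number, a threshold of 0.05, and each library left out in turn. TPM used exon lengths of GENCODE M21 for the 32354 genes whose identifier and version matched. Promoter windows are RefSeq's on GRCm38.p6, and motifs were matched by letter with Python 3.11.15.

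Genes were named as follows: all members, any listed gene past the threshold and otherwise the 2 with the smallest p of each list in the Nrf1 comparisons, and the 5 genes most like Nrf1. The members and lists were chosen with earlier results of these data known. Replicates differed by more than sampling noise. The labels do not say whether replicates of a genotype come from separate litters, so p-values measure the spread between these samples. Intervals and read depth cover counting error and that spread only.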

Additional observations from a re-analysis of the deposited data

How the results depend on the processing

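No member passed the adjusted threshold of 0.01 under any of the 900 alternatives of the 60 member results, and the lowest adjusted p was 0.402. Of these alternatives 57 turned the sign of an estimate, 46 by leaving out a library and 11 otherwise, while 32 results kept their sign in all of them. The cause was not tested. Values here are log2 fold changes. Leaving out each library in turn, Nrf1 cKO against WT ranged from -0.43 to 0.25 for Ppargc1b, from -0.60 to 0.11 for Pprc1, from -0.090 to 0.21 for Tfam, from -0.16 to 0.13 for Tfb1m, from -0.23 to 0.21 for Tfb2m and from -0.060 to 0.51 for Polrmt. In dKO against Dnmt3C KO the ranges were from -0.026 to 0.13 for Gabpa, from -0.051 to 0.61 for Ppargc1b and from -0.19 to 0.14 for Pprc1. Those of Dnmt3C KO against WT were from -0.18 to 0.34 for Nfe2l1, from -0.35 to 0.33 for Pprc1, from -0.15 to 0.18 for Tfam, from -0.10 to 0.36 for Tfb2m and from -0.20 to 0.35 for Polrmt. For dKO against Nrf1 cKO they were from -0.034 to 0.19 for Gabpa, from -0.37 to 0.13 for Ppargc1b, from -0.066 to 0.12 for Tfb2m and from -0.093 to 0.057 for Polrmt. Nrf1 loss over both backgrounds ranged from -0.086 to 0.044 for Gabpa, from -0.16 to 0.037 for Ppargc1a, from -0.092 to 0.24 for Ppargc1b and from -0.24 to 0.044 for Pprc1. The interaction ranged from -0.49 to 0.029 for Nfe2l1, from -0.087 to 0.59 for Pprc1, from -0.14 to 0.18 for Tfam, from -0.26 to 0.054 for Tfb1m, from -0.36 to 0.10 for Tfb2m and from -0.36 to 0.19 for Polrmt. In both comparisons with WT, each of these ranges had leaving out WT replicate 1 at its one end and leaving out WT replicate 2 at the other. With library totals alone, Pprc1 came to -0.0027 in dKO against Dnmt3C KO, and Tfb2m to 0.016 and Polrmt to 0.0065 in dKO against Nrf1 cKO. Tfb2m in dKO against Nrf1 cKO came to 0.0015 with DESeq2 size factors, 0.0065 with genes only and 0.0019 with no filter. Tfam in Dnmt3C KO against WT came to 0.0008 with the DESeq2 Wald test and 0.0074 with no filter.

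The labels do not say whether a replicate number marks a shared litter or day. For Dnmt3C KO replicate 3 and dKO replicate 3 the deposited count columns carry other replicate numbers than the titles, which were used here. Deviations of same-numbered libraries correlated between -0.31 and 0.25 over 15 pairs, above 0.1 in 3, so the numbers were not taken as pairs. With a replicate block, Tfb1m came to 0.0067 in Nrf1 cKO against WT, and Pprc1 to -0.0015 in dKO against Dnmt3C KO and to 0.057 in Dnmt3C KO against WT. The block called 1 of the 79 listed genes in Nrf1 cKO against WT, Alas1 (log2 0.98, adjusted p = 0.00253, beside 0.62 and 0.943 without it), and took the calls over all features from 0 to 87 there and from 0 to 131 in Dnmt3C KO against WT. No member was among them. Replicate 3 has no WT counterpart, so in these fits it does not enter the difference, and few degrees of freedom remain. Alas1 was at 143, 138 and 56.8 CPM in Nrf1 cKO replicates 1 to 3 and at 88.2 and 56.8 CPM in WT. The DESeq2 Wald test called 26, 19, 25, 8, 37 and 0 features in the comparisons in the order given in the report, and edgeR 0, 0, 0, 0, 1 and 0. The 1 feature, Tuba3a, a testis tubulin gene named after its value was seen, was lower over both backgrounds (log2 -1.23, adjusted p = 0.00529). Ppargc1b had the fewest reads of the group, 11 to 44 per library, and 2 WT libraries limit every comparison with WT.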
